A study of Mus musculus with 13 samples.

Results

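Il21r, Snn, Fam111a, Txndc11 and Cd28 are 5 of the 21887 protein-coding genes of the mouse RefSeq annotation at which BLIMP1 was found near a gene end in plasmablasts and in no other cell type studied. A summit is the single position at which a peak was called. Bound genes of a cell type were those with a summit of each of its 2 libraries no more than 1 kb from either end of the gene. A gene was called plasmablast-only when it was bound in plasmablasts and no library of another cell type had a summit within 5 kb of its ends. Bound in plasmablasts were 8691 genes, 39.7% of all, and 1094 genes, 5.00% of all, were plasmablast-only. Without replicate 1 of the day 6 primordial germ cell-like cells (d6 PGCLC), the longest list, 1945 genes were plasmablast-only. The 5 genes were chosen by these measured summit positions, and 4 of them, with Irf4, also have the highest numbers of plasmablast regions near their ends among the 1094, so both are given as a description with no test. The transcription factor gene Irf4 met the same rule and is used for comparison.

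BLIMP1 was mapped by ChIP-seq through its GFP tag, with a polyclonal antibody, in mice and mouse embryonic stem cells of strain C57BL/6 that carry EGFP fused to the N terminus of BLIMP1 on both alleles. All 12 ChIP libraries therefore share the tagged allele, and cells without the tag were not analysed here. Plasmablasts were purified B cells stimulated with IL-4 (2 ng/mL) and LPS (10 ng/mL) for 3 days and sorted for GFP and CD138, with 2 libraries from 10 and 11 times 1e5 cells. Day 2 and day 6 primordial germ cell-like cells (d2 and d6 PGCLC) were made in floating culture from epiblast-like cells and sorted for KIT at d2 and for SSEA1 and integrin beta-3 at d6, with 2 libraries each. LIF and BMP4 were present for d2 cells, and LIF, BMP4, BMP8a, SCF and EGF for d6 cells. Primordial germ cells (PGC) came from E12.5 gonads sorted for SSEA1, with 1 male and 1 female library that were taken as the libraries of one cell type. Intestinal epithelium came from E16.5 embryos (GFP and EPCAM sorted) and photoreceptor precursors from retinas at postnatal day 4 (GFP sorted), with 2 libraries each. The libraries were from 3.0 and 30 (d2 PGCLC), 3.0 and 10 (d6 PGCLC), and 3.3 and 3.6 (male and female PGC) times 1e5 cells. Those of intestinal epithelium were from 10 and 8.8, and those of photoreceptor precursors from 8.8 and 9.2 times 1e5 cells (replicates 1 and 2). Whether the replicates are separate cultures or animals is not stated in the labels. No expression was measured, so the sorted cells could not be checked against marker genes.

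The lists held 7998 to 76185 summits. The plasmablast lists held 40750 and 45122, and d6 PGCLC replicate 1 held the 76185. In the other cell types 8.41% (d2 PGCLC), 9.72% (d6 PGCLC), 5.79% (E12.5 PGC), 7.29% (intestinal epithelium) and 9.68% (photoreceptor precursors) of genes were bound. By the same rule 0.0228% of genes were d2 PGCLC-only, 0.0640% d6 PGCLC-only, none E12.5 PGC-only, 0.0777% intestinal epithelium-only and 0.201% photoreceptor precursor-only. Free of summits of cell types other than plasmablasts within 5 kb of the ends were 37.1% of genes. The lists carry neither read depth nor peak heights. The plasmablast lists were longer than 9 of the 10 others, and the part of list length in the results was not tested. The longest list of all, d6 PGCLC replicate 1, had no summit within 5 kb of the ends of any of the 5 genes, as the rule that chose them required.

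Prdm1 encodes BLIMP1, a zinc-finger regulator that represses many genes of the B cell programme and is needed for the formation of antibody-secreting cells. It binds DNA through a core of the letters GAAAG, close in sequence to the sites of interferon regulatory factors such as IRF4. Il21r and Cd28 encode cell-surface receptors of lymphocytes. Il21r encodes the receptor of interleukin-21, a cytokine of helper T cells that drives B cells towards antibody secretion. Cd28 encodes a co-stimulatory receptor known mainly from T cells and also found on plasma cells. Txndc11 encodes a thioredoxin-like membrane protein of the endoplasmic reticulum, where secreted proteins fold. Fam111a encodes a protease that binds the replication clamp PCNA, and Snn encodes stannin, a small membrane protein known from the toxicity of organotin compounds.

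RefSeq promoter sequences of the same assembly (GRCm38.p6, which has the coordinates of mm10) were matched for 4 of the 5 genes. Il21r, Snn, Fam111a and Txndc11 each had a summit of both plasmablast libraries within 1 kb of an annotated start. So had 41.9% of all genes with an entry, 93.9% of those bound in plasmablasts and 93.9% of the plasmablast-only genes, the last 2 being chosen by summits near a gene end. The 250 bases before the first annotated start are printed here because these promoters, of genes bound in the same cells, differ in composition. CG dinucleotides are in capitals, and each sequence runs 5′ to 3′ on the strand of its gene.
Il21r, plus strand, chr7:125603179-125603428: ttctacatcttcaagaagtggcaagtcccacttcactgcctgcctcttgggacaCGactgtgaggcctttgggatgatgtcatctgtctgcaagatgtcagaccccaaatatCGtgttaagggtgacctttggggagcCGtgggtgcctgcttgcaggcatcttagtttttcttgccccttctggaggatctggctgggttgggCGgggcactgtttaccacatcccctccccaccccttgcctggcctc
Fam111a, plus strand, chr19:12573260-12573509: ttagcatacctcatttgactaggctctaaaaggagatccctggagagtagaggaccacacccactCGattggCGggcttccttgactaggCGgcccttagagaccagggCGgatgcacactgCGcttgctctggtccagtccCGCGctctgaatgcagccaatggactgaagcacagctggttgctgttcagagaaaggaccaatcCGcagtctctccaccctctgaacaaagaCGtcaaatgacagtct
Snn, plus strand, chr16:11066048-11066297: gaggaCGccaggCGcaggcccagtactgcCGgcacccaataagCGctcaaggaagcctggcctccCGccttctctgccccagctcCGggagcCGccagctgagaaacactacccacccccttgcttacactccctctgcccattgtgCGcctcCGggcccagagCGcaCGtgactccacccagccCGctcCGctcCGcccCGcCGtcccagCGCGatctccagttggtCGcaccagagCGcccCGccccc
Txndc11, minus strand, chr16:11134533-11134782: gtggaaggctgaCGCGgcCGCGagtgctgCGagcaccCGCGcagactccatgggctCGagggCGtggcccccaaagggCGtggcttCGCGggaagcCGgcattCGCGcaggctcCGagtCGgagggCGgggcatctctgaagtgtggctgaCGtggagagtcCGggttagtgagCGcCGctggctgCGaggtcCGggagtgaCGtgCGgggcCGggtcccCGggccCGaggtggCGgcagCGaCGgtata

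Il21r had 4 CG dinucleotides in these bases and Fam111a 9, whereas Snn had 21 and Txndc11 32. GC content was 55.6%, 54.4%, 70.4% and 72.0% in the same order. The median promoter of all protein-coding genes held 10 CG (quartiles 3 and 19), that of genes bound in plasmablasts 17 (11 and 24), and that of plasmablast-only genes 15 (8 and 21). Il21r lay below the lower quartile of the plasmablast-only genes, and Txndc11 above the upper one. Only the Il21r sequence, of the 4, contained a plasmablast summit of both replicates.

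The strings GAAAGT and AGTGAAAG, which extend the BLIMP1 core, and the strings GAAA and GGAA each followed by any 2 bases and GAAA, which resemble sites of interferon response and of IRF4 with its ETS partner, were searched on both strands of the promoter entries. An entry reaches from 250 bases before to 50 bases after the start. GAAAGT occurred in 14.3% of all 32851 entries, AGTGAAAG in 1.32%, the spaced GAAA pair in 3.44% and the spaced GGAA and GAAA in 2.72%. For Il21r, Snn, Fam111a and Txndc11 only the entry of the first annotated start was searched, and none of the 4 strings was in it. Fam111a and Txndc11 each have a further annotated start, whose entry was not searched. Irf4 held GAAAGT once, on the reverse strand (ACTTTC), from 2 bases before its start. The core GAAAG alone was added after the others were searched and is contained in GAAAGT and AGTGAAAG. It was in 57.3% of all entries. Among the first-start entries of the 4 genes, that of Fam111a held it (57 bases before the start, plus strand) and the other 3 did not. The windows hold only some of the summits, and no match says only that these letters are not in them.

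In the 10 libraries of other cell types, the nearest summit to any of the 5 genes lay between 9452 and 281223 bp from a gene end. In the plasmablast libraries it lay between 27 and 804 bp. For Il21r the plasmablast summits lay at 127 and 146 bp, for Snn at 212 and 89 bp, for Fam111a at 660 and 804 bp, for Txndc11 at 182 and 163 bp, and for Cd28 at 27 and 123 bp (replicate 1, then replicate 2). Both plasmablast libraries were thus nearer than all others at each gene, which the choice of the genes fixed. Among all plasmablast-only genes the nearest summit of another cell type lay at a median of 11404 bp, so Txndc11 (9452 bp) was below that median and the other 4 genes were above it. Genes just inside and just outside the 5 kb rule were Arfgap3, at 5003 bp, and 3110040N11Rik, at 5000 bp. For the 1 kb rule they were Slc35c1, at 998 bp, and Sptbn1, at 1002 bp.

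**Figure D1:**
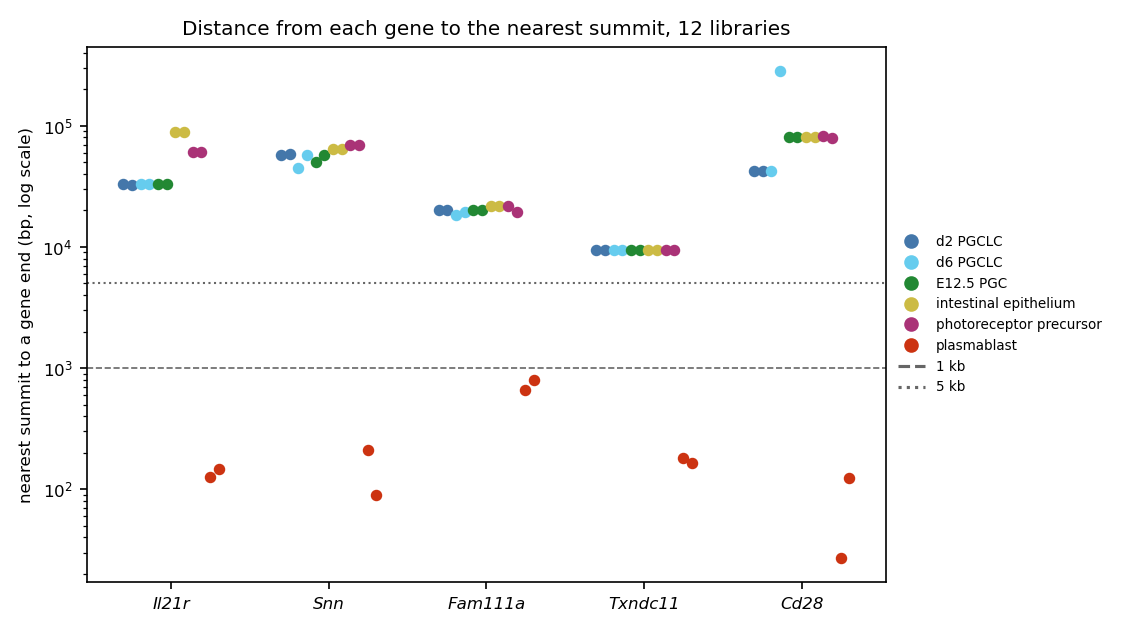
Distance in bp (log scale) from either end of each gene to the nearest summit, 1 point per library, 12 points per gene, coloured by cell type; dashed and dotted lines mark 1 kb and 5 kb. Plasmablast points lie between 27 and 804 bp, and all other points between 9452 and 281223 bp.

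Il21r (gene ID 60504, chr7:125603252-125634397) had a summit of each plasmablast library at its annotated transcription start. The gene lies on the plus strand, and its annotated start at 125603429 is inside the gene's span. The summits of replicates 1 and 2 lay 50 and 31 bp before this start. They delimit the 20 bases at chr7:125603379-125603398, shown because the summits of both libraries lay this close together:
Il21r, 5′ to 3′, plus strand: tgggcggggcactgtttacc

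Plasmablast replicate 1 had 17 summits in Il21r and the 50 kb beyond it on either side, and replicate 2 had 19. The 6 germ-lineage libraries had 1, 2, 2, 2, 1 and 1 (d2 PGCLC replicates 1 and 2, d6 PGCLC replicates 1 and 2, male and female E12.5 PGC). The intestinal and photoreceptor precursor libraries had 0 each. Summits of all libraries were joined into regions wherever neighbouring summits were within 200 bp of each other, and a region was bound in plasmablasts when it held a summit of both replicates. Il21r had 7 such regions within 5 kb of its ends, and none held a summit of another cell type. Of these, 3 lay in the first part of the gene, 1 before it and 3 beyond its far end, in the gap before Gtf3c1. The bound region farthest inside the gene ended 4905 bp from its lower end.

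All 6 germ-lineage libraries had a summit in 1 region inside the neighbouring gene Gtf3c1, a subunit gene of the RNA polymerase III factor TFIIIC (chr7:125667454-125667534). It lay 33057 bp beyond Il21r and held no plasmablast, intestinal or photoreceptor precursor summit. Around Il21r the plasmablast and germ-lineage summits were therefore at different places. On the other side lies Il4ra, 23778 bp from Il21r, which encodes the receptor chain for the IL-4 used in the culture. Il4ra was itself plasmablast-only, with summits at 547 and 12 bp and the nearest summit of another cell type at 9762 bp.

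Snn (gene ID 20621, chr16:11066298-11074985) and Txndc11 (gene ID 106200, chr16:11074911-11134645) are neighbours whose spans overlap by 75 bp. Per the promoter table Snn lies on the plus and Txndc11 on the minus strand, so their 3′ ends face each other. They share their summits at this junction: of the 14 and 15 plasmablast summits within 5 kb of the ends of Snn, 8 and 8 were also within 5 kb of an end of Txndc11 (replicates 1 and 2). Of 9 bound plasmablast regions near the ends of Snn and 7 near those of Txndc11, 5 were the same. At this junction the genes are thus not separate cases of plasmablast binding. Each also had a bound region of its own near its start, described below.

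Snn carried plasmablast summits along its whole length. Plasmablast replicates 1 and 2 each had 9 summits inside this gene of 8688 bp, and the other 10 libraries had none. Its 9 bound regions were the most of any of the 21887 genes, a count made from the same summits that chose the gene. The region nearest to the start of Snn lay 212 to 305 bp inside the gene (chr16:11066510-11066603). In the gene and 50 kb beyond it, replicates 1 and 2 had 20 and 23 summits, d6 PGCLC replicate 1 had 1, at 44388 bp, and the other 9 libraries had 0.

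Txndc11 had plasmablast summits at both ends. The bound region at its first annotated start (chr16:11134824-11134990) lay before that start, with the replicate 2 summit at 292 and the replicate 1 summit at 458 bp from it. The nearest summits inside the gene at this end lay 69 bp (replicate 1) and 501 bp (replicate 2) after the start and were in different regions. Inside Txndc11 replicate 1 had 11 summits and replicate 2 had 13. No library of another cell type had any inside this gene of 59735 bp. When summits were joined at 100 bp in place of 200 bp, the 7 bound regions near its ends became 4.

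Beyond its start, Txndc11 was followed by a region that all 12 libraries shared. In each library a summit lay between 9452 and 9465 bp from Txndc11, inside the zinc-finger gene Zc3h7a. The 12 summits fell within 14 bp (chr16:11144097-11144110), with both plasmablast libraries among them. A further region 42463 bp beyond Txndc11 held summits of 10 libraries, all but the 2 of photoreceptor precursors, whose own bound region lay 41452 bp beyond it. The stretch without summits of other cell types ran from 11021910 to 11144097 on chromosome 16, 122 kb that take in both Snn and Txndc11. It held 23 plasmablast summits of replicate 1 and 27 of replicate 2. With other cell types absent within 10 kb in place of 5 kb, Txndc11 no longer met the rule.

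Fam111a (gene ID 107373, chr19:12573510-12589769, plus strand) had plasmablast summits on both sides of its start but none at it. The bound regions lay 660 to 804 bp before the start (chr19:12572706-12572850) and 858 to 909 bp inside the gene (chr19:12574368-12574419). With bound defined within 500 bp in place of 1 kb, Fam111a did not meet the rule. Near its ends 7 regions were bound in plasmablasts, 6 of them within 3383 bp of the start and 1 beyond its other end. Every one of the 7 summits that replicate 1 had in the gene and 5 kb beyond was matched within 200 bp in replicate 2, and 7 of 9 the other way.

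The upstream side of Fam111a held binding shared by all cell types. All 12 libraries had a summit between 21798 and 21839 bp before the start (chr19:12551671-12551712), between genes. Further regions around it held summits of germ-lineage, intestinal, photoreceptor precursor and plasmablast libraries. In the gene and 50 kb beyond, plasmablast replicates 1 and 2 had 17 and 19 summits. The d2 PGCLC libraries had 4 and 3, the d6 PGCLC libraries 6 and 6, male and female E12.5 PGC 2 and 3, the intestinal libraries 1 and 2, and the photoreceptor precursor libraries 3 and 4. The last summit of another cell type before the gene lay 18504 bp from it, in d6 PGCLC replicate 1. Between that point and the gene, regions bound in plasmablasts lay at 16957, 9137, 2407, 1298 and 660 bp.

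Cd28 (gene ID 12487, chr1:60746388-60773359) had the fewest plasmablast summits. Replicates 1 and 2 had 7 and 5 in the gene and 50 kb beyond. Of each, 4 lay in the 4 bound regions, and the others were in regions of 1 library. One bound region lay 27 to 123 bp outside its lower-coordinate end (chr1:60746265-60746361) and 2 lay inside the gene. In the inner region at position 60771887 both replicates gave the identical summit. The d2 PGCLC libraries had 1 summit each and d6 PGCLC replicate 1 had 2, the nearest at 42474 bp, and the other 7 libraries had 0. The stretch without summits of other cell types was the longest of the 5 genes, 149 kb. No protein-coding gene lay within 100 kb of Cd28. The nearest were Raph1, 179314 bp below, and Ctla4, 135666 bp above, the latter encoding the inhibitory receptor that shares its ligands with CD28. Both were plasmablast-only. At Ctla4 the plasmablast summits lay at 756 and 9 bp and the nearest summit of another cell type at 52392 bp.

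**Figure D2:**
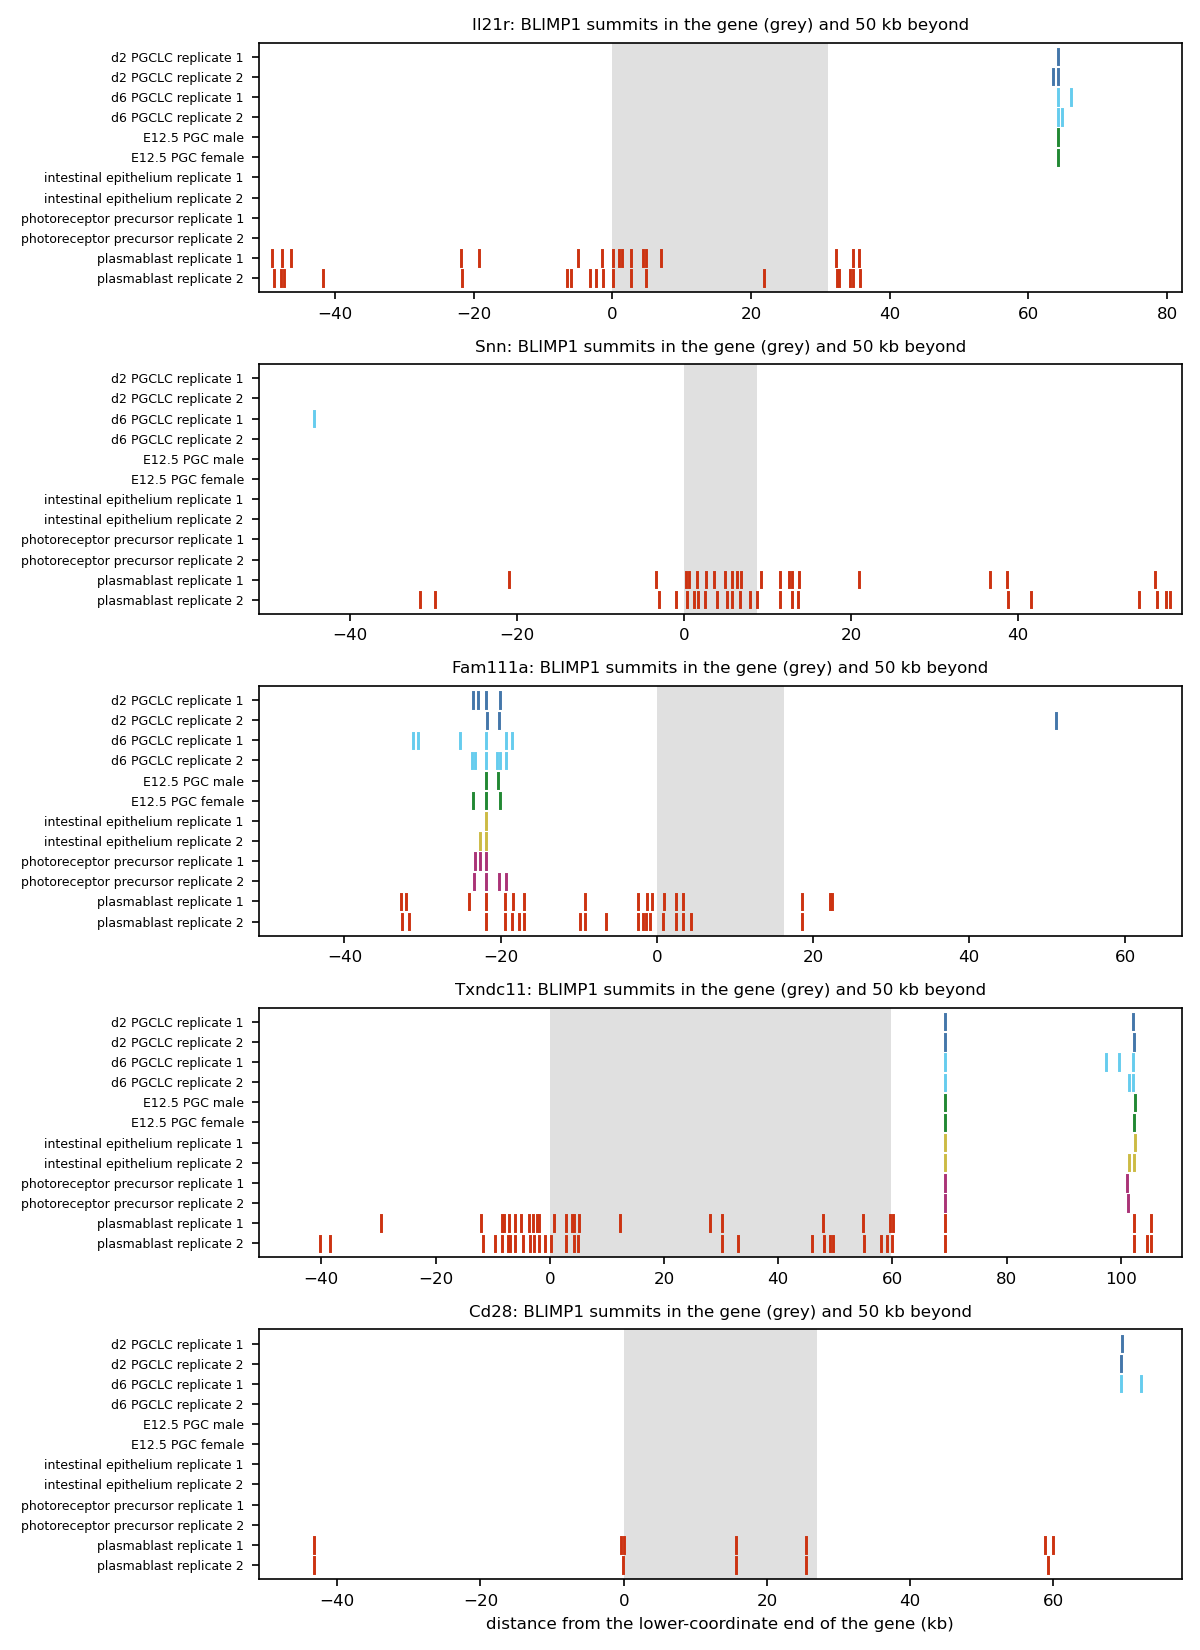
Summits of the 12 libraries (rows, coloured by cell type) along each gene (grey) and 50 kb on either side; the x axis is the distance in kb from the lower-coordinate end of the gene. No summit of the 10 other libraries lies in a grey area or within 5 kb of it, and a column of summits in all rows stands beside Txndc11 (9452 to 9465 bp beyond it) and before Fam111a (21798 to 21839 bp).

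None of the 5 genes stayed plasmablast-only when other cell types had to be absent within 50 kb of the ends, as they were at 75 genes, 0.343% of all. Summits per 10000 of a library put lists of unequal length side by side. In the gene and 50 kb beyond, both plasmablast libraries exceeded the other 10 libraries at all 5 genes, as they did at 13.2% of all genes. The values of replicates 1 and 2 were 4.17 and 4.21 at Il21r (others 0 to 1.30, median 0.412), 4.91 and 5.10 at Snn (others 0 to 0.131, median 0), and 6.38 and 6.87 at Txndc11 (others 0.525 to 2.50, median 1.53). They were 4.17 and 4.21 at Fam111a (others 0.788 to 3.89, median 1.67) and 1.72 and 1.11 at Cd28 (others 0 to 0.616, median 0). These spans include the 5 kb that the rule cleared of other cell types.

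From 5 to 50 kb beyond the gene, outside the stretch that the rule used, the groups did not overlap at Il21r and Snn and overlapped at Fam111a, Txndc11 and Cd28. Of all genes, 11.5% had both plasmablast libraries above all 10 others there. At Il21r the plasmablast values were 1.47 and 1.55 per 10000 against at most 1.30 in another library. Some of these plasmablast summits, in both replicates, lay inside the neighbour Il4ra, itself plasmablast-only, and without them the values were not computed. At Snn they were 1.47 and 1.77 against at most 0.131, with the body of Txndc11 inside that flank. At Fam111a the values of 2.45 and 2.22 lay inside the range of the others (0.788 to 3.89), and the 3.89 belonged to d6 PGCLC replicate 2. At Txndc11 they were 2.45 and 2.66 against at most 2.50, and at Cd28 0.736 and 0.443 against at most 0.616. At Irf4 the groups did not overlap, with 4.91 and 4.65 against at most 2.46.

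The 4 genes Snn (9), Il21r, Fam111a and Txndc11 (7 each) had more bound plasmablast regions near their ends than nearly all other plasmablast-only genes. The median of the 1094 was 1.00 region, and only 5 of them had 7 or more, the fifth being Irf4 with 7. Cd28 had 2 regions, as did 202 others. In the 5 genes and 5 kb beyond, with summits shared by Snn and Txndc11 counted once, 29 of 44 replicate 1 summits had a replicate 2 summit within 200 bp, and 29 of 49 the other way. The choice of genes with summits of both replicates fixed part of this recurrence, so it is given as a count alone.

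**Figure D3:**
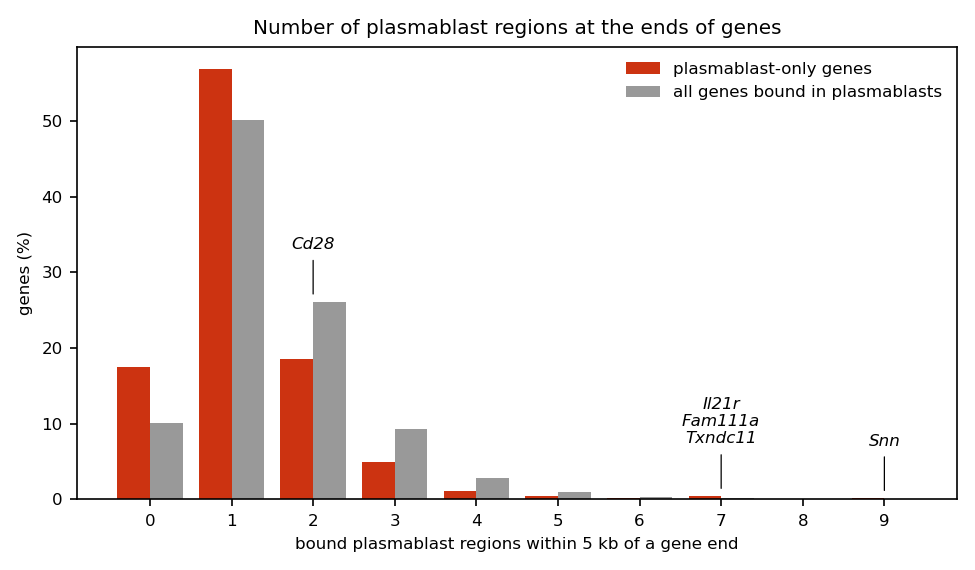
Share of genes (y, %) by the number of bound plasmablast regions within 5 kb of a gene end (x), for the 1094 plasmablast-only genes (red) and all 8691 genes bound in plasmablasts (grey). Snn stands at 9, Il21r, Fam111a and Txndc11 at 7, where bars are too low to see, and Cd28 at 2.

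At Irf4, the regulator of plasma cell formation (chr13:30749233-30766981), the plasmablast summits lay 33 and 2 bp inside the start. Irf4 held 19 and 14 plasmablast summits inside the gene and, as with Fam111a and Txndc11, a region with summits of all 12 libraries, 28716 bp beyond its higher end in Exoc2. The nearest summit of another cell type to Irf4 lay at 10588 bp, in the male E12.5 PGC library.

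Genes that work with the 5 were counted in lists without the 5 themselves, beside the share of all genes. The first list held 18 receptors and signalling genes, mainly of the common gamma chain cytokines, the family of IL-21 and IL-4, with Il6ra, Il6st and Tyk2 of interleukin-6 signalling and Il13ra1, a receptor chain for IL-13. Of the 18, 12 were bound in plasmablasts (66.7%, against 39.7% of all genes) and 6 were not. Of these, 2 were plasmablast-only (11.1%, against 5.00%): Il4ra, described above, and Il9r, the IL-9 receptor, at 111 and 80 bp. Il2rg, the gamma chain itself, and Jak3, the kinase attached to it, had 2 regions each and summits of other cell types at 367 and 71 bp. Il6ra, Il6st and Tyk2 were bound and Il13ra1 was not. Il6ra had 4 regions and the kinase gene Tyk2 had 3. In the 5 other cell types between 2 and 3 of the 18 were bound (11.1% to 16.7%, against 5.79% to 9.72% of all genes).

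Of 12 genes of the CD28 and B7 family, the co-stimulatory receptors and their ligands, 7 were bound in plasmablasts (58.3%, against 39.7% of all genes). With a window of 500 bp 4 of the 12 were bound, against 31.9% of all genes. Ctla4 and Cd86, the latter a ligand of CD28 and CTLA4, were plasmablast-only (16.7%, against 5.00% of all genes). Btla, an inhibitory receptor, and Pdcd1, which encodes PD-1, had 3 plasmablast regions each. Pdcd1 missed the 1 kb window, with summits at 990 and 1066 bp. Cd80, a further CD28 ligand, had its nearest plasmablast summits at 1454 and 1446 bp and was not bound. Icosl, the ligand of ICOS, was bound in all 6 cell types and was the only family gene bound in any other cell type. That is 8.33% of the 12 in each of these, against 5.79% to 9.72% of all genes. For comparison, 2 of 12 T cell genes were bound in plasmablasts (16.7%, against 39.7% of all genes), Cd3d and Cd2. Without plasmablast replicate 1, 5 of the 12 were bound, with 9947 of all 21887 genes. With a window of 2 kb, 5 of the 12 were bound, against 44.6% of all genes. Cd3g and Lck had 2 plasmablast regions each within 5 kb but were not bound. None of the 12 was bound in another cell type, where 5.79% to 9.72% of all genes were.

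Of 23 genes of the thioredoxin family and related folding factors of the endoplasmic reticulum, 18 were bound in plasmablasts (78.3%, against 39.7% of all genes). Ero1a, an oxidase that recharges protein disulfide isomerases, was plasmablast-only (1 of 23, 4.35%, against 5.00% of all genes), with the nearest summit of another cell type at 44521 bp. Creld2 had 4 plasmablast regions, and Manf, Pdia3 and Txndc5 had 3 each. Of these 4, Txndc5 was farthest from summits of other cell types, at 3926 bp. Between 3 and 7 of the 23 were bound in the other cell types (13.0% to 30.4%, against 5.79% to 9.72% of all genes). Txndc11 itself, chosen by the plasmablast-only rule, was not counted among the 23.

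Of 21 replication factors linked to PCNA, the partner of the Fam111a product, 16 were bound in plasmablasts (76.2%, against 39.7% of all genes). Pold2, a subunit of DNA polymerase delta, and Kmt5a, a histone H4 methyltransferase, were plasmablast-only (9.52%, against 5.00%). Both had 0 bound plasmablast regions within 5 kb, so the summits of the 2 libraries did not fall in one region. Pold1, the catalytic subunit of the same polymerase, had 5 plasmablast regions, and was not plasmablast-only because of a summit of another cell type at 4858 bp. Rfc4 and Rnaseh2a had 2 regions each and Atad5 had 1. Between 1 and 3 of the 21 were bound in the other cell types (4.76% to 14.3%, against 5.79% to 9.72%). Of 8 plasma cell genes 5 were bound in plasmablasts (62.5%, against 39.7%). Irf4, chosen here for comparison, and Jchain, the joining chain of secreted antibodies, were plasmablast-only (2 of 8, against 5.00% of all genes). Jchain had 0 bound plasmablast regions within 5 kb. Prdm1 had 5 plasmablast regions, Xbp1 3, and Sdc1, which encodes the CD138 used for sorting, and Slamf7 2 each. Slamf7 was not bound, since replicate 2 had its nearest summit at 3467 bp.

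**Figure D4:**
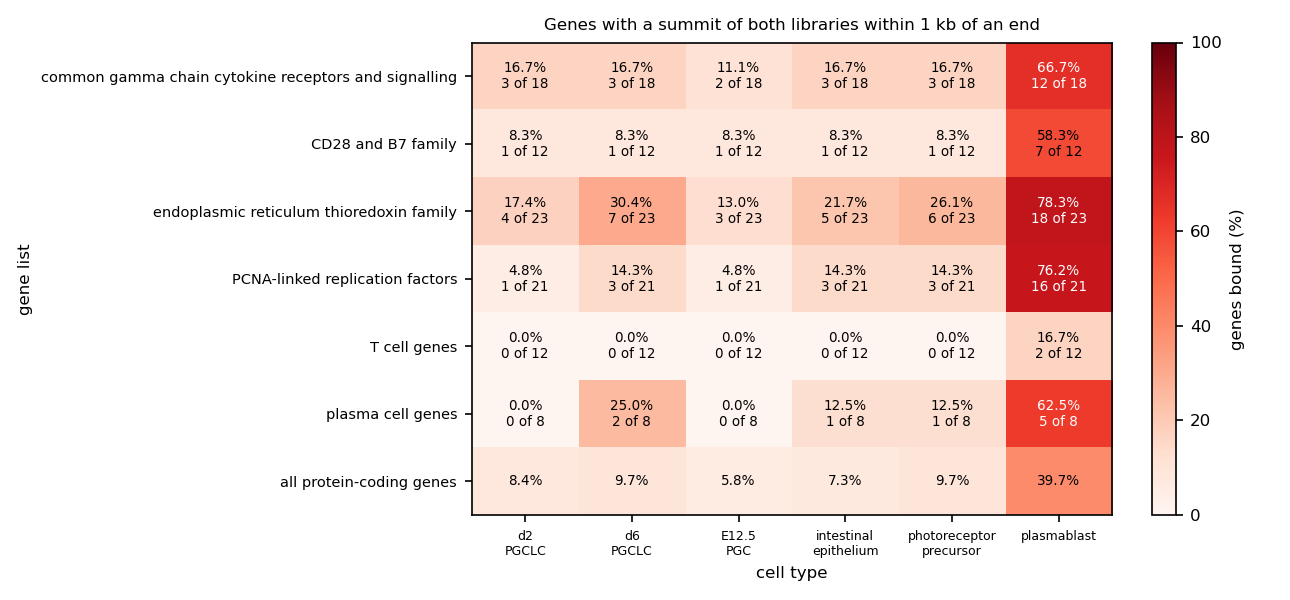
Share of genes of each list (rows, without the 5 genes) with a summit of both libraries within 1 kb of an end in each cell type (columns), with counts, and all protein-coding genes in the bottom row. The plasmablast column holds the highest share in every row, from 16.7% of T cell genes to 78.3% of endoplasmic reticulum genes, against 39.7% of all genes.

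Likeness of pattern was measured as the sum, over 12 libraries and windows of 1, 5 and 50 kb around the gene ends, of the differences in the number of summits, so that 0 is an identical pattern. The most similar gene to Il21r was Cd180, a B cell surface receptor related to Toll-like receptors, with a sum of 17 against a median of 68 over all genes. Themis2 (18) and Spib (19), an ETS transcription factor gene of B cells, followed. For Snn they were Txndc5 (22), Gimap9 (25) and Il21r (27), with a median of 83. For Fam111a they were Ric1 (18), H2-Ob (22) and Fam167b (23), with a median of 76, and for Txndc11 H2-Eb1 (19), a class II antigen-presenting gene, Pkig (31) and Gga3 (32), with a median of 101. For Cd28, which had few summits, they were Gm30447 (4), Rab28 (5) and Pdhx (6), with a median of 28. Cd180, Gimap9, Il21r, H2-Ob, Fam167b, Pkig, Gm30447, Rab28 and Pdhx were plasmablast-only, and the other genes named here were not. Of all genes, 5.00% were plasmablast-only. Likeness counts summits in windows that the rule also used, so genes like the members tend to meet it by construction.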

How the data were processed

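BLIMP1 was mapped by ChIP-seq in 12 libraries of 6 cell types. An input library is not analysed here. The submitters' processing notes name MACS2 2.1, Bowtie 1.1.2, cutadapt 1.7.1 and Trim Galore 0.3.7, and the build mm10. The authors deposited 1 list of summit positions per library, with no height, score, p-value or depth. Not given in the sources used here are the calling threshold and whether positions count from 0 or 1, so they may be off by 1 bp.

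Chromosomes 1 to 19, X and Y and the 21887 protein-coding genes of RefSeq GRCm38.p6 were used. Windows were 1, 5 and 50 kb and summits were merged at 200 bp. Gene states were tested on simulated data. All 94 list genes matched. The 5 genes and the lists were chosen with earlier results of these data known, so no test was run. Named genes were the 5 genes, Irf4, the nearest protein-coding neighbours, the plasmablast-only genes of each list and up to 4 others with the most plasmablast regions, and the 3 genes most like each. Python 3.11.15, numpy 2.4.6 and scipy 1.17.1 were used. Other windows, merge distances and omitted libraries were tried.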

Additional observations from a re-analysis of the deposited data

How the results depend on the processing

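All 5 genes met the rule with both libraries in the same region, with the gene body cleared too or with positions counted from 0. They also met it with 1 library left out, for each of the 12, with bound in either plasmablast library and with bound within 2 kb. These last settings only loosen the rule, so genes chosen by it could not fail them. With other cell types absent within 50 kb, 0 met it. The number of plasmablast-only genes, 1094, became 1648 with a cleared window of 2 kb, 629 with 10 kb and 75 with 50 kb. It was 4284 when both libraries of another cell type were needed to exclude a gene. With both plasmablast libraries in the same region it was 856 when merged at 200 bp and 617 when merged at 100 bp. With 1 library left out it ran from 1103 (without d6 PGCLC replicate 2) to 1945 (without d6 PGCLC replicate 1). The number of genes bound in plasmablasts lay between 6980 and 10595 over its alternatives. A wider cleared window or narrower merge lowers these counts by construction. A stricter peak threshold could not be tried, since the lists hold no scores. Read depth is unknown and limits every count. No paired analysis was possible because the results come from no test.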

Other observations

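Some genes without protein product near Snn, Txndc11 and Cd28 were plasmablast-only, and none near Il21r or Fam111a was bound in plasmablasts. The long non-coding RNA gene Gm9861 ends 30 bp below Snn and was plasmablast-only, with summits at 242 and 335 bp, which lie in Snn. Eif4a-ps4, a pseudogene 40693 bp below Cd28, was plasmablast-only with summits at 735 and 787 bp. Of the genes near Txndc11, the protein-coding gene Rsl1d1 (58392 bp above) and the non-coding 2610020C07Rik were plasmablast-only at 60 and 68 bp and at 31 and 23 bp, from the same pair of summits between them. Of 5 protein-coding genes within 100 kb of Fam111a only Dtx4 was bound in plasmablasts, as it was in photoreceptor precursors.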
